A study of Mus musculus with 48 samples.

Results

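Fat tissue receives sympathetic and thyroid signals through a small set of genes, and 8 of them are described here in 3 fat depots of mice with and without cystathionine gamma-lyase on a diet with or without cystine. The 8 genes were taken by symbol from a table of 47729 genes. They are the beta adrenergic receptors Adrb1 and Adrb3, the alpha-2A adrenergic receptor Adra2a, the cAMP phosphodiesterases Pde4d and Pde4b, the deiodinase Dio2 and the thyroid hormone receptors Thra and Thrb. Norepinephrine released by sympathetic nerves binds beta receptors on fat cells, which act through a stimulatory G protein and adenylyl cyclase to raise cAMP and activate protein kinase A, whereas the alpha-2A receptor couples to inhibitory G proteins. Phosphodiesterases of the PDE4 family break cAMP down and so end the signal. Dio2 encodes the enzyme that turns thyroxine into the active hormone triiodothyronine inside the cell, is known as a cAMP-induced gene of brown fat, and supplies ligand to the nuclear receptors encoded by Thra and Thrb.

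Poly(A) RNA of frozen brown (BAT), subcutaneous (SFAT) and visceral (EFAT) fat from male mice was sequenced in 48 libraries, 4 in each of 12 groups. Cth encodes cystathionine gamma-lyase, the transsulfuration enzyme that makes cysteine, and the series asks how fat tissue answers when cysteine is short. In each depot the groups were Cth-/- mice on the cystine-free diet (Cth-/- CysF), Cth-/- mice on the control diet (Cth-/- CTRL), Cth+/+ mice on the cystine-free diet (Cth+/+ CysF) and Cth+/+ mice on the control diet (Cth+/+ CTRL), each fed for 6 days. The labels give neither the construct of the Cth allele nor the age or strain of the mice. They do not say that each library of a group is a separate animal, nor that a replicate number is the same animal in the 3 depots, so the spread behind each p-value is that between the libraries at hand, which may be technical. In whole tissue, fewer cells of a type and less RNA per cell cannot be told apart.

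Libraries held 22067580 to 46031118 reads in BAT, 16245832 to 39001462 reads in SFAT and 18711900 to 36110293 reads in EFAT. Mitochondrial genes took 21.8 to 45.7% of the reads of a BAT library, 7.06 to 31.3% in SFAT and 4.82 to 14.7% in EFAT. Cth itself had 0 to 6 reads in the 24 Cth-/- libraries and 8 to 389 in the 24 Cth+/+ libraries. The summed level of 6 adipocyte markers (Adipoq, Plin1, Fabp4, Cidec, Lipe and Pnpla2) lay between 8472 and 16498 CPM (counts scaled to the size of the library) in the 48 libraries. That of 6 brown adipocyte markers (Ucp1, Cidea, Zic1, Cox7a1, Cox8b and Ebf2) was 3962 to 12280.3 CPM across BAT libraries, 68.9 to 1449 across SFAT and 29.0 to 242 across EFAT libraries, and none of these markers was at 0 in any group. The predicted gene Gm43512 split each depot into 9 libraries under 0.1 CPM (set A) and 7 at or above it (set B), a split whose origin the labels do not give. In BAT and SFAT the Cth-/- CysF group had 3 set A libraries and 1 in set B (library 20), and each other group had 2 of each. In EFAT the split followed the groups more closely: Cth-/- CysF had 1 set A and 3 set B libraries, Cth-/- CTRL 3 and 1, Cth+/+ CysF 4 and 0, and Cth+/+ CTRL 1 and 3. Fits within a set therefore often rest on a group of 1 library, which the fit assumes to vary like the other groups. Libraries 10, 12 and 20 of BAT (high mitochondrial share) stood apart from their groups. So did 14 (lymphocyte genes) and 20 (high mitochondrial share) of SFAT and 2, 11 and 14 of EFAT (far on the first principal component). Fold changes that rest on them are given with and without them, and correlations only with them.

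Levels below are CPM scaled by TMM (trimmed mean of M values) over the 48 libraries. Fold changes are log2 values from the edgeR quasi-likelihood fit of a depot's 16 libraries, or, between depots, of all 48. The standard error after ± is the absolute log2 fold change divided by the square root of the test's F statistic. Adjusted p denotes the Benjamini-Hochberg value of that test over all genes tested in the comparison, with 0.05 as the threshold.

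In the GENCODE M21 annotation of GRCm38, Dio2 (ENSMUSG00000007682.5) lies on chr12:90724552-90738438, Adrb1 (ENSMUSG00000035283.4) on chr19:56722199-56733113 and Adrb3 (ENSMUSG00000031489.14) on chr8:27225776-27250616. Adra2a (ENSMUSG00000033717.5) lies on chr19:54044151-54048982, Pde4d (ENSMUSG00000021699.17) on chr13:108449948-109953461 and Pde4b (ENSMUSG00000028525.16) on chr4:102087543-102607259. Thra (ENSMUSG00000058756.13) lies on chr11:98740638-98769006 and Thrb (ENSMUSG00000021779.16) on chr14:17660261-18038090. Of these, Dio2 and Adrb3 are on the minus strand. Exons of Thra overlap those of the clock gene Nr1d1 on the other strand, and Dio2 and Adrb3 each overlap a predicted gene there (Gm26512 and Gm45470). The labels do not say that reads were counted by strand, so these pairs may share reads.

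The 250 bases before the RefSeq start (GRCm38.p6) are shown for Dio2, the gene with the widest range of levels, and for Adrb1, which differed between all 3 depots. Capitals mark a full cAMP response element (TGACGTCA), its core (TGACG) and a TATA box (TATAAA), searched on both strands; a full element holds the core on each strand. The Dio2 start in RefSeq lies upstream of the gene's end in GENCODE.
Dio2 promoter, chr12:90739039-90739288, minus strand: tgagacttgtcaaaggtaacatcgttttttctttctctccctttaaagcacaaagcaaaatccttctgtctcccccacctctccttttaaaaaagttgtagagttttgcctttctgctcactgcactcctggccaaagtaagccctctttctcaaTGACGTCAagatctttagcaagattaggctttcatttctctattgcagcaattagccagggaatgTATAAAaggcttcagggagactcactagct
Adrb1 promoter, chr19:56721867-56722116, plus strand: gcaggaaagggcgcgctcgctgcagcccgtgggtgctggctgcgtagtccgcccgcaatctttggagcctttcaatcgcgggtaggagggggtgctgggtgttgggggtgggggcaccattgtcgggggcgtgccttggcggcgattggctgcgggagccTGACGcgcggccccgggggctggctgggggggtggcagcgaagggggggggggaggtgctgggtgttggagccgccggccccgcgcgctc
The Dio2 window held the full element 95 to 88 bases before the start and the TATA box 30 to 25 bases before it. The Adrb1 window held no full element, and its core lay 90 to 86 bases before the start. Of 32851 RefSeq windows of this length, 1.55% held TGACGTCA, 17.8% held TGACG and 12.4% held TATAAA. Windows were found for 6 of the 8 genes, and among these 6 the full element was in the Dio2 window alone.

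In Cth-/- mice the diet changed 4 of the genes in SFAT and 1 each in BAT and EFAT. In SFAT, 4 of the 8 genes passed (Dio2, Pde4d and Thrb higher, Adrb3 lower), where 25.4% of all genes tested did. In BAT, 1 of 7 tested genes passed (Adrb3, lower), against 18.0% of all genes. In EFAT, 1 of 8 passed (Thrb, higher), against 28.8% of all genes. The share of the 8 genes was therefore near or under the background in BAT and EFAT. The median log2 fold change over the tested members was 0.08 for BAT, 0.04 for SFAT and -0.08 for EFAT, against -0.01, 0.03 and 0.07 over all genes.

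In Cth+/+ mice the same diet gave no call among the 8 genes in any depot with edgeR, where the share of all genes passing was 0.0826% for BAT, 0.0664% for SFAT and 0% for EFAT. At an unadjusted p under 0.05, BAT had 1424 genes, SFAT 2310 and EFAT 678. DESeq2 called 39 genes in EFAT, none of them a member, and it called Pde4d in BAT and Adrb1 in SFAT. The genotype on the control diet also gave 0 calls among the members with edgeR or DESeq2, for which the share of all genes was 2.10% for BAT, 0.103% for SFAT and 0.0464% for EFAT, and 2660, 1825 and 1070 genes passed at an unadjusted p under 0.05 in BAT, SFAT and EFAT. On the cystine-free diet the genotype comparison called 1 of 7 BAT genes (31.6% of all genes), 4 of 8 SFAT genes (37.5%) and 3 of 8 EFAT genes (39.7%). The genotype by diet interaction called 1 of 7 BAT genes (6.42%), 4 of 8 SFAT genes (21.7%) and 0 of 8 EFAT genes (10.4%; 5158 genes at an unadjusted p under 0.05), where DESeq2 also called 0 members and Thrb came closest at an adjusted p of 0.111. The comparisons of a depot share groups, so their calls are not independent.

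**Figure D1:**
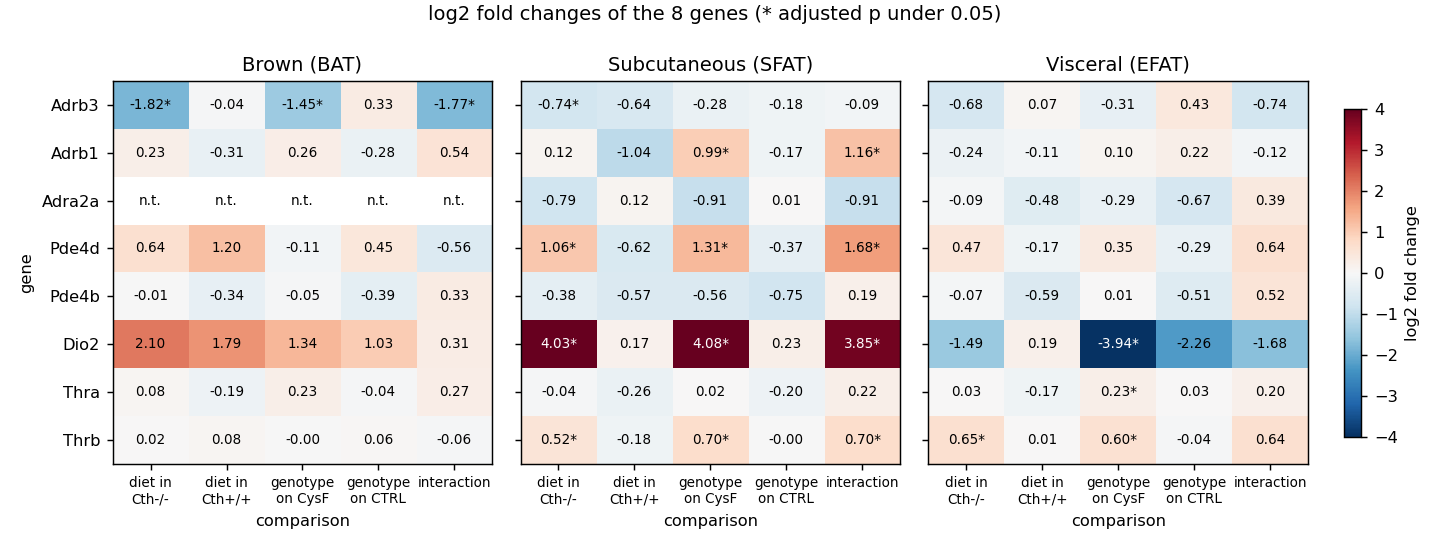
Log2 fold changes of the 8 genes (down the page) in 5 comparisons (across) for BAT, SFAT and EFAT, on a colour scale of -4 to 4; a star marks an adjusted p under 0.05 and n.t. a gene that was not tested. The panel of SFAT has 4 stars for the diet in Cth-/- mice, that of BAT has 1 (Adrb3) and that of EFAT has 1 (Thrb).

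Adrb3, the beta receptor that predominates in mouse fat cells, fell in BAT to 64.6 ± 14.7 CPM in Cth-/- CysF mice, against 229 ± 29.9 CPM in Cth-/- CTRL mice (SD, n = 4 each). In BAT its level was 86.1, 59.6, 53.0 and 59.8 CPM in Cth-/- CysF mice and 208, 199, 252 and 257 CPM in Cth-/- CTRL mice. In Cth+/+ CysF mice it was 241, 196, 111 and 162 CPM, and in Cth+/+ CTRL mice 142, 150.4, 228 and 220.1 CPM. All 4 Cth-/- CysF libraries lay below all 12 others. Against Cth-/- CTRL the change was -1.82 ± 0.21 (adjusted p = 6.97e-05), a 3.53-fold lower level. Against Cth+/+ CysF it was -1.45 ± 0.21 (adjusted p = 1.49e-04), whereas the diet difference in Cth+/+ mice was -0.04 ± 0.21 (adjusted p = 0.978). The interaction was -1.77 ± 0.30 (adjusted p = 0.00325), so the diet response of Adrb3 in BAT differed between the genotypes.

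The fall against Cth-/- CTRL in BAT was -1.73 within set A and -1.90 within set B, where library 20 alone stands for Cth-/- CysF. Without libraries 10, 12 and 20 it was -1.84. Leaving out 1 library at a time gave -1.97 to -1.74, and the call held in all 15 alternatives. Within set B the genotype difference on the cystine-free diet (-1.14, adjusted p = 0.056) and the interaction (-1.85, adjusted p = 0.13) no longer passed. In the diet comparison in Cth-/- mice 11 of 15 skeletal muscle markers fell, with summed levels of 40.1 to 292 CPM in Cth-/- CysF and 226 to 1736 CPM in Cth-/- CTRL libraries. Of 7 fibroblast markers 6 fell (206 to 257 CPM against 619.6 to 840.4 CPM), and of 7 macrophage markers 6 fell (48.5 to 68.6 CPM against 76.4 to 139 CPM). Of 6 adipocyte markers 2 rose and 1 fell, and their sum was 14819.7 to 15953 CPM in Cth-/- CysF and 12919.9 to 14141 CPM in Cth-/- CTRL libraries. The part of these shifts in the Adrb3 result was not tested.

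In both white depots the Adrb3 difference had the same sign, and in SFAT it passed. SFAT had 209.8, 139.9, 86.5 and 77.5 CPM in Cth-/- CysF and 197, 166, 261 and 246 CPM in Cth-/- CTRL mice, with 1 of the 4 Cth-/- CysF libraries inside the Cth-/- CTRL range. The 4 Cth+/+ CysF libraries had 184, 151, 153 and 145 CPM, all below the 249, 197, 287 and 234 CPM of Cth+/+ CTRL. The diet comparison in Cth-/- mice gave -0.74 ± 0.25 (adjusted p = 0.0409), and that in Cth+/+ mice -0.64 ± 0.25 (adjusted p = 0.279). The first call ended in 9 of 15 alternatives, among them without libraries 14 and 20 (-0.47, adjusted p = 0.23), in a model with a term for the set (-0.73, adjusted p = 0.051) and within set A (-0.49, adjusted p = 0.30). It also ended on leaving out any 1 of libraries 12, 14, 15, 17, 18 and 20. The interaction in SFAT was -0.09 ± 0.35 (adjusted p = 0.882).

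In EFAT, Adrb3 had 309.8, 211, 129.6 and 152 CPM in Cth-/- CysF and 307, 303, 416 and 345 CPM in Cth-/- CTRL mice. Cth+/+ CysF mice had 250.4, 164, 447 and 189 CPM and Cth+/+ CTRL mice 223, 254, 281 and 247 CPM. The 2 Cth-/- groups overlapped through library 16 alone, at 309.8 CPM. The diet difference in Cth-/- mice was -0.68 ± 0.29 (adjusted p = 0.0941). It passed with DESeq2 (-0.71, adjusted p = 0.043) and without library 16 (-1.01, adjusted p = 0.018). In a fit of all 48 libraries, the Adrb3 diet response in Cth-/- mice was 1.09 ± 0.38 higher in EFAT than in BAT (adjusted p = 0.0462), a call that ended in 13 of 22 alternatives. Between SFAT and BAT the difference was 1.07 ± 0.38 (adjusted p = 0.141), and it passed with the replicate number as a block (1.00, adjusted p = 0.039).

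**Figure D2:**
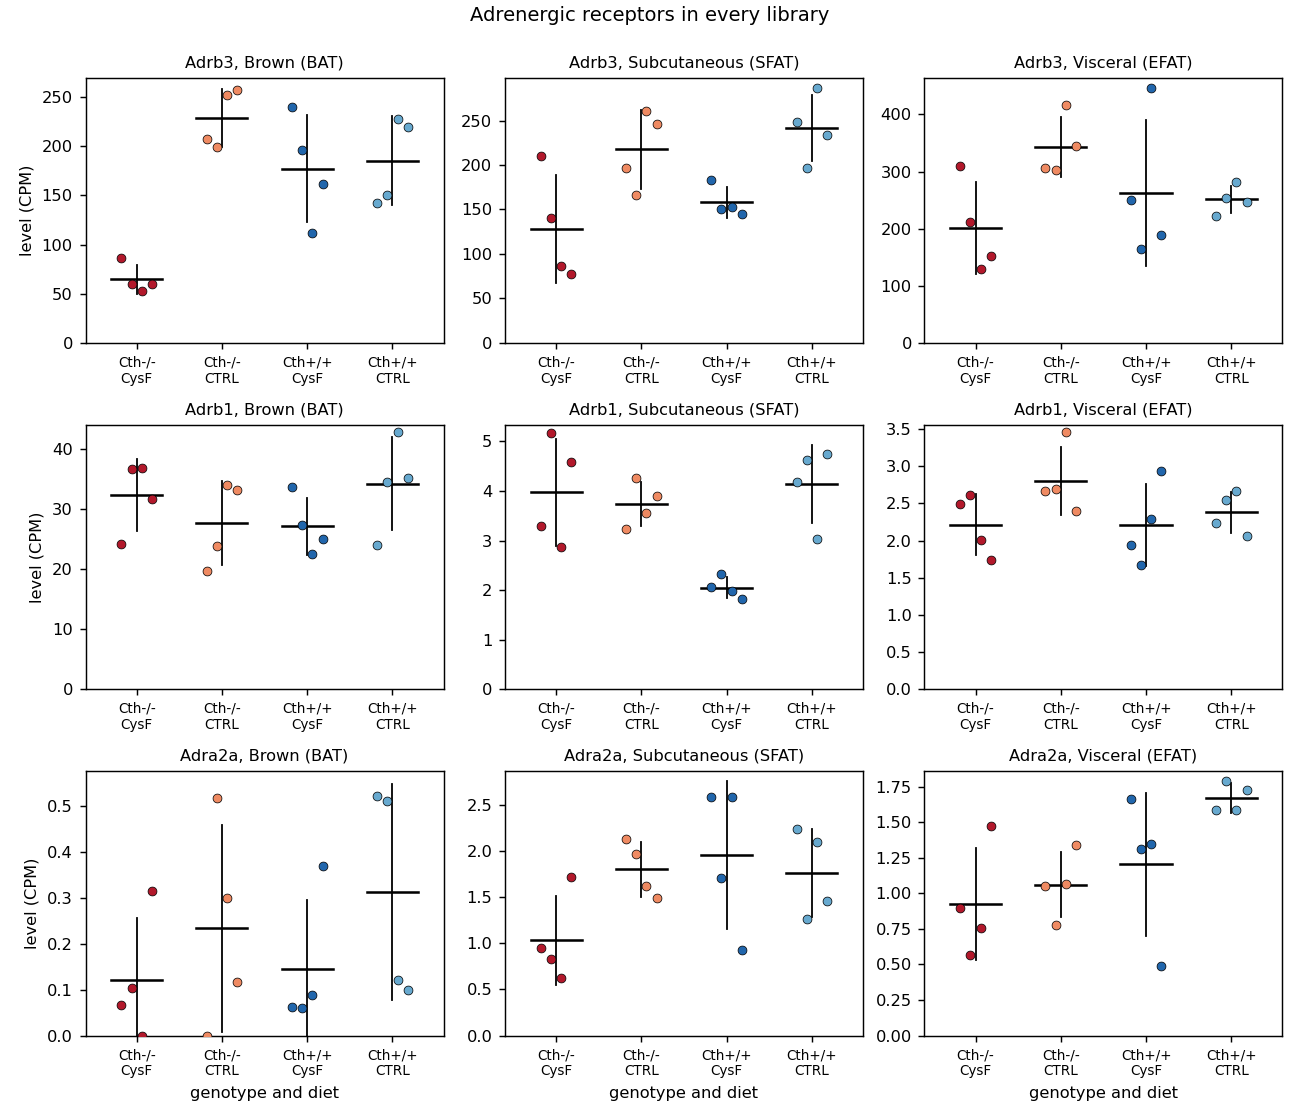
Levels of Adrb3, Adrb1 and Adra2a (CPM) in the 4 groups of BAT, SFAT and EFAT; points are libraries, and bars give the mean and SD of 4. The Adrb3 points of Cth-/- CysF in BAT sit at 53.0 to 86.1 CPM, below every other BAT library.

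Adrb1, the second beta receptor, differed between the 3 depots and was highest in BAT. Among Cth+/+ CTRL mice BAT averaged 34.2 ± 7.74 CPM of it, SFAT 4.14 ± 0.785 CPM and EFAT 2.38 ± 0.280 CPM (SD, n = 4 each). BAT exceeded SFAT by 3.06 ± 0.21 (adjusted p = 1.09e-15) and EFAT by 3.88 ± 0.21 (adjusted p = 2.52e-18), and SFAT exceeded EFAT by 0.81 ± 0.20 (adjusted p = 0.00442). In BAT the group means were 32.3 ± 5.95, 27.7 ± 7.03, 27.1 ± 4.76 and 34.2 ± 7.74 CPM in Cth-/- CysF, Cth-/- CTRL, Cth+/+ CysF and Cth+/+ CTRL mice, and no comparison passed.

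In SFAT, Adrb1 had its lowest values in Cth+/+ CysF mice, and its diet response differed between the genotypes. Cth-/- CysF mice had 3.29, 5.17, 2.86 and 4.59 CPM and Cth-/- CTRL mice 3.24, 4.27, 3.56 and 3.90 CPM. Cth+/+ CysF mice had 2.06, 2.32, 1.98 and 1.82 CPM and Cth+/+ CTRL mice 4.18, 4.62, 3.02 and 4.75 CPM. The highest Cth+/+ CysF library was below the lowest of the 12 others. On the cystine-free diet Cth-/- exceeded Cth+/+ by 0.99 ± 0.20 (adjusted p = 0.00155), and the interaction was 1.16 ± 0.28 (adjusted p = 0.00986). The diet difference was 0.12 ± 0.20 in Cth-/- mice (adjusted p = 0.707) and -1.04 ± 0.20 in Cth+/+ mice (adjusted p = 0.0598). This last value passed with DESeq2 (-1.02, adjusted p = 0.0012) and in a model with a term for the set (adjusted p = 0.048). Within set A the interaction was 1.00 (adjusted p = 0.12) and within set B 1.44 (adjusted p = 0.055). Summed fibroblast markers in SFAT were 1111 to 1421 CPM in Cth-/- CysF, 3949 to 10282 CPM in Cth-/- CTRL, 5909.7 to 13062 CPM in Cth+/+ CysF and 4283 to 5529.7 CPM in Cth+/+ CTRL libraries, and adipocyte markers 12865 to 16498, 10482 to 12557, 8472 to 10904 and 10450.5 to 13083 CPM in the same order. Their part in the result was not tested. In EFAT the Adrb1 group means were 2.21 to 2.81 CPM and no comparison passed.

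Adra2a, the inhibitory receptor, was the least abundant member. BAT libraries held 0 to 11 of its reads each, too few for the test within that depot. In Cth+/+ CTRL mice it averaged 0.313 ± 0.235 CPM in BAT (2 to 9 reads a library), 1.76 ± 0.473 CPM in SFAT and 1.67 ± 0.104 CPM in EFAT (SD, n = 4 each). It entered the fit of all 48 libraries only through the white depots, so its difference from BAT is given as levels, with no test value. Its calls there enter only the counts of members called between depots, where this limit is repeated. In SFAT it had 0.954, 0.826, 0.619 and 1.72 CPM in Cth-/- CysF and 2.13, 1.96, 1.62 and 1.49 CPM in Cth-/- CTRL mice. The groups overlapped through library 20, at 1.72 CPM. The difference was -0.79 ± 0.36 (adjusted p = 0.121), and it passed without that library (-1.16, adjusted p = 0.028). In EFAT the means were 0.925 ± 0.391 CPM in Cth-/- CysF, 1.06 ± 0.229 CPM in Cth-/- CTRL, 1.20 ± 0.501 CPM in Cth+/+ CysF and 1.67 ± 0.104 CPM in Cth+/+ CTRL mice (SD, n = 4), with no call.

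Pde4d, a cAMP phosphodiesterase, rose in SFAT of Cth-/- mice. In SFAT it had 39.5, 28.2, 23.8 and 51.6 CPM in Cth-/- CysF mice and 20.5, 13.0, 21.0 and 15.7 CPM in Cth-/- CTRL mice. Cth+/+ CysF mice had 12.1, 15.8, 13.0 and 18.4 CPM and Cth+/+ CTRL mice 22.0, 23.2, 16.7 and 27.3 CPM. The Cth-/- CysF libraries lay above all Cth-/- CTRL and all Cth+/+ CysF libraries. The diet raised it by 1.06 ± 0.24 in Cth-/- mice (adjusted p = 0.00507), and Cth-/- exceeded Cth+/+ by 1.31 ± 0.24 on the cystine-free diet (adjusted p = 7.03e-04). The interaction was 1.68 ± 0.34 (adjusted p = 0.00348), with -0.62 ± 0.24 for the diet in Cth+/+ mice (adjusted p = 0.284). The diet value in Cth-/- mice was 1.10 within set A, 1.39 within set B and 0.81 without library 20, whose muscle markers summed to 1296 CPM.

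In BAT, where Pde4d is more abundant, the diet difference had the same sign in both genotypes and passed in neither with edgeR. Its levels were 138, 117, 157 and 255 CPM in Cth-/- CysF and 86.7, 101, 95.2 and 152 CPM in Cth-/- CTRL mice. In Cth+/+ CysF mice they were 122, 146, 282 and 174 CPM, all above the 60.5, 67.9, 82.6 and 113 CPM of Cth+/+ CTRL mice. The diet differences were 0.64 ± 0.30 in Cth-/- mice (adjusted p = 0.149) and 1.20 ± 0.30 in Cth+/+ mice (adjusted p = 0.138), which DESeq2 called at an adjusted p of 0.0097. The interaction was -0.56 ± 0.42 (adjusted p = 0.471). In EFAT, Pde4d averaged 11.3 ± 1.09 CPM in Cth-/- CysF, 8.76 ± 1.28 CPM in Cth-/- CTRL, 9.54 ± 4.75 CPM in Cth+/+ CysF and 10.6 ± 1.95 CPM in Cth+/+ CTRL mice. The Cth+/+ CysF spread came from library 11 at 16.4 CPM. Without it the genotype difference on the cystine-free diet was 0.72 (adjusted p = 0.0075), against 0.35 ± 0.24 (adjusted p = 0.272) with it.

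Pde4b, the second phosphodiesterase of the set, passed no test within a depot. Its means in BAT were 11.3 ± 3.61 CPM in Cth-/- CysF, 11.4 ± 3.82 in Cth-/- CTRL, 11.8 ± 5.26 in Cth+/+ CysF and 15.2 ± 2.02 in Cth+/+ CTRL mice. In SFAT they were 8.04 ± 3.67, 10.7 ± 3.82, 12.1 ± 3.08 and 17.7 ± 3.11 CPM, and in EFAT 13.8 ± 3.77, 15.6 ± 7.12, 14.6 ± 1.48 and 22.0 ± 4.03 CPM, in the same order of groups (SD, n = 4 each). Cth+/+ CTRL had the highest mean in all 3 depots. In SFAT the diet difference was -0.38 ± 0.30 in Cth-/- mice (adjusted p = 0.387), and it passed without library 20 (-0.76, adjusted p = 0.048). In Cth+/+ mice it was -0.57 ± 0.30 (adjusted p = 0.402), with 7.64 to 14.6 CPM in CysF below the 14.9 to 21.8 CPM in CTRL libraries.

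**Figure D3:**
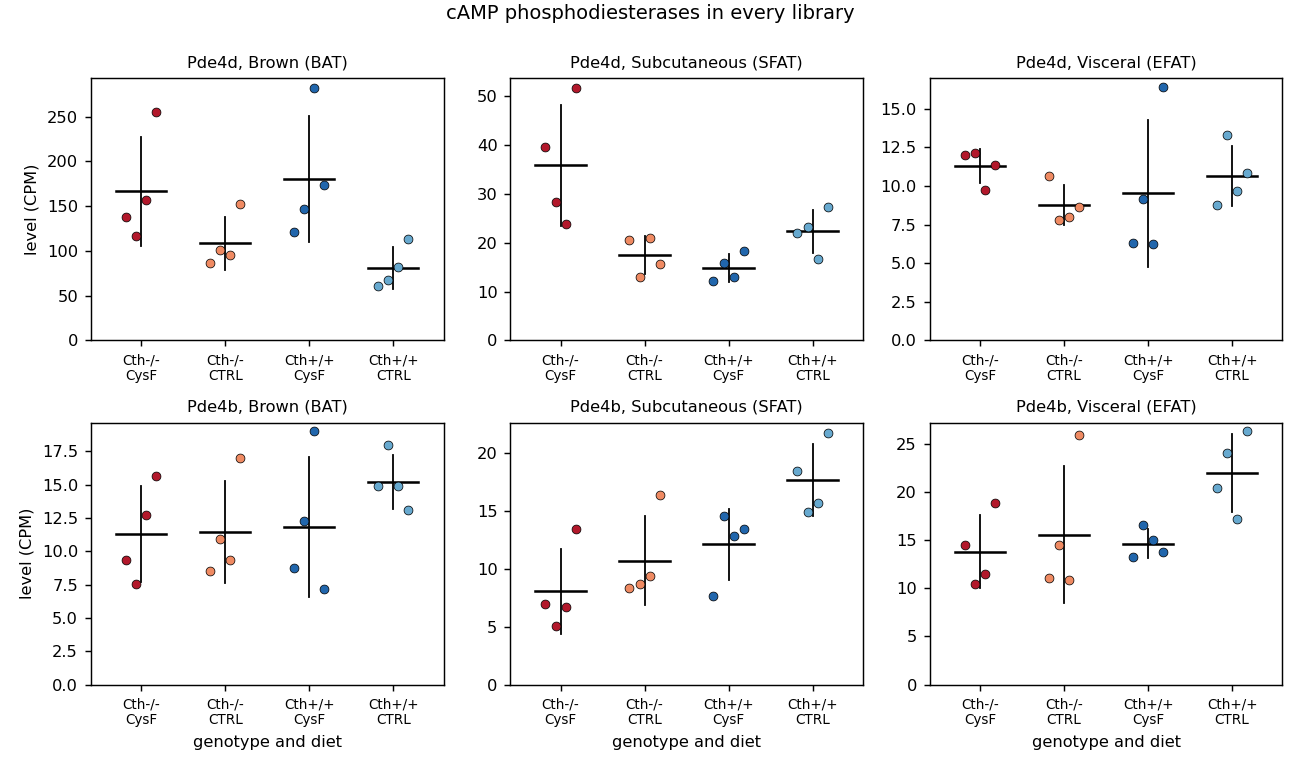
Levels of Pde4d and Pde4b (CPM) in the 4 groups of each depot; points are libraries, and bars give the mean and SD of 4. In SFAT the 4 Pde4d points of Cth-/- CysF, at 23.8 to 51.6 CPM, lie above those of Cth-/- CTRL, at 13.0 to 21.0 CPM.

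Dio2 had the widest range of the set, 0.402 to 1294 CPM over the 48 libraries. In SFAT it had 29.3, 31.3, 11.5 and 144 CPM in Cth-/- CysF mice and 2.07, 3.43, 1.74 and 6.68 CPM in Cth-/- CTRL mice. Cth+/+ CysF mice had 3.47, 2.99, 3.76 and 3.21 CPM and Cth+/+ CTRL mice 4.61, 2.02, 1.79 and 3.43 CPM. All 4 Cth-/- CysF libraries lay above all 12 others, which did not separate by group. The diet raised Dio2 in Cth-/- mice by 4.03 ± 0.68 (adjusted p = 7.20e-04), a 16.3-fold change, against 0.17 ± 0.66 in Cth+/+ mice (adjusted p = 0.933). Cth-/- exceeded Cth+/+ on the cystine-free diet by 4.08 ± 0.68 (adjusted p = 3.00e-04), and the interaction was 3.85 ± 0.92 (adjusted p = 0.00883).

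Library 20 carried much of the size of the SFAT change and not the call. Without it the diet change was 2.80 (adjusted p = 8.2e-04), within set A, which leaves that library out, it was 2.26 (adjusted p = 0.015), and within set B 6.31. The interaction no longer passed within set A (2.33, adjusted p = 0.082). In the diet comparison in Cth-/- mice 4 of 5 tested brown adipocyte markers rose, with a median of 1.31 and summed levels of 303 to 1449 CPM in Cth-/- CysF against 152 to 321 CPM in Cth-/- CTRL libraries. Of 15 muscle markers 0 passed with edgeR, at an unadjusted p under 0.05 or with DESeq2, at sums of 32.8 to 1296 CPM in Cth-/- CysF and 39.4 to 531 CPM in Cth-/- CTRL libraries. Of 7 fibroblast markers 6 fell, of 7 macrophage markers 5 fell and of 8 B cell markers 8 fell. B cell markers summed to 0.887 to 3.10 CPM in Cth-/- CysF and 2.52 to 114 CPM in Cth-/- CTRL libraries. The part of these markers in the SFAT results for Dio2, Pde4d, Adrb3 and Thrb was not tested.

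In BAT, Dio2 varied widely inside each group. It had 106, 319, 658 and 1294 CPM in Cth-/- CysF and 34.0, 82.8, 120.2 and 340.3 CPM in Cth-/- CTRL mice. It had 101, 159.6, 449.7 and 242 CPM in Cth+/+ CysF and 31.5, 24.8, 89.0 and 139 CPM in Cth+/+ CTRL mice. Both CysF groups had higher means than their CTRL groups, and both pairs overlapped. The diet differences were 2.10 ± 0.79 in Cth-/- mice (adjusted p = 0.0779) and 1.79 ± 0.79 in Cth+/+ mice (adjusted p = 0.463), and the interaction was 0.31 ± 1.08 (adjusted p = 0.899). In Cth-/- mice the value was 0.84 within set A, 4.11 within set B, where library 20 is the 1 Cth-/- CysF library, 1.02 without libraries 10, 12 and 20 and 2.94 without library 15 (adjusted p = 0.029). Summed brown adipocyte markers were 8501 to 12280.3 CPM in Cth-/- CysF and 3962 to 6752 CPM in Cth-/- CTRL libraries, with 1 of 6 markers called higher. Gm26512, on the other strand of the Dio2 locus, averaged 1.83 ± 0.442 CPM in Cth-/- CysF BAT, far under Dio2.

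In EFAT the Dio2 diet difference in Cth-/- mice had the other sign and did not pass. Dio2 had 0.473, 0.402, 0.461 and 0.577 CPM in Cth-/- CysF and 3.08, 0.604, 1.24 and 0.870 CPM in Cth-/- CTRL mice. It had 2.84, 5.69, 0.909 and 22.8 CPM in Cth+/+ CysF and 12.1, 5.51, 5.86 and 3.97 CPM in Cth+/+ CTRL mice. The Cth-/- CysF libraries were the 4 lowest of the depot, at 12 to 19 reads each, and each Cth-/- library was below every Cth+/+ CTRL library. On the cystine-free diet Dio2 was lower in Cth-/- than in Cth+/+ mice, with a difference of -3.94 ± 0.83 (adjusted p = 0.00237), a 15.4-fold lower level, and of -2.65 without libraries 2, 11 and 14. The 4 Cth+/+ CysF libraries are all in set A, with 1 of the Cth-/- CysF libraries. Within set A the call ended (-4.10, adjusted p = 0.33), and it held with the set as a model term. Library 11, at 22.8 CPM, also had the depot's highest sum of brown adipocyte markers, 242 CPM. Without it the difference was -2.63 (adjusted p = 0.0073). In this genotype comparison 5 of 7 macrophage markers fell (305 to 459 CPM in Cth-/- CysF against 528 to 756 CPM in Cth+/+ CysF libraries), as did 4 of 7 fibroblast markers (1689 to 1894 CPM against 1865 to 2957 CPM), and of 4 tested brown adipocyte markers 1 rose and 2 fell (44.7 to 57.8 CPM against 29.0 to 242 CPM). Summed epithelial and epididymal markers were 79.2 to 478 CPM in Cth-/- CysF and 3.45 to 136 CPM in Cth+/+ CysF libraries, with library 11 the lowest. The part of these markers in the result was not tested. On the control diet the genotype difference was -2.26 ± 0.76 (unadjusted p = 0.00939, adjusted p = 0.680), and the diet difference in Cth-/- mice was -1.49 ± 0.79 (adjusted p = 0.168), both between groups that did not overlap. For Cth+/+ mice the diet difference was 0.19 ± 0.72 (adjusted p = 0.9999), and the interaction in EFAT was -1.68 ± 1.06 (adjusted p = 0.304).

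The diet response of Dio2 in Cth-/- mice thus differed between depots. Its EFAT side rests on 12 to 19 reads a library in Cth-/- CysF and 24 to 132 in Cth-/- CTRL mice. EFAT minus SFAT was -5.55 ± 1.29 (adjusted p = 0.0114), where 1 of the 8 genes and 4.38% of all genes passed. EFAT minus BAT was -3.61 ± 1.27 (adjusted p = 0.0457), where 2 of the 8 genes and 16.2% of all genes passed. SFAT minus BAT was 1.94 ± 1.04 (adjusted p = 0.401), where 0 of the 8 genes and 2.16% of all genes passed with edgeR, DESeq2 also called 0 members, the fit with a replicate block called 1 (Adrb3), and 2657 genes had an unadjusted p under 0.05. The difference between EFAT and SFAT ended without EFAT library 12 (-4.88, adjusted p = 0.059), and was -4.20 without the libraries that stood apart (adjusted p = 0.037). That between EFAT and BAT ended in 14 of 22 alternatives.

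**Figure D4:**
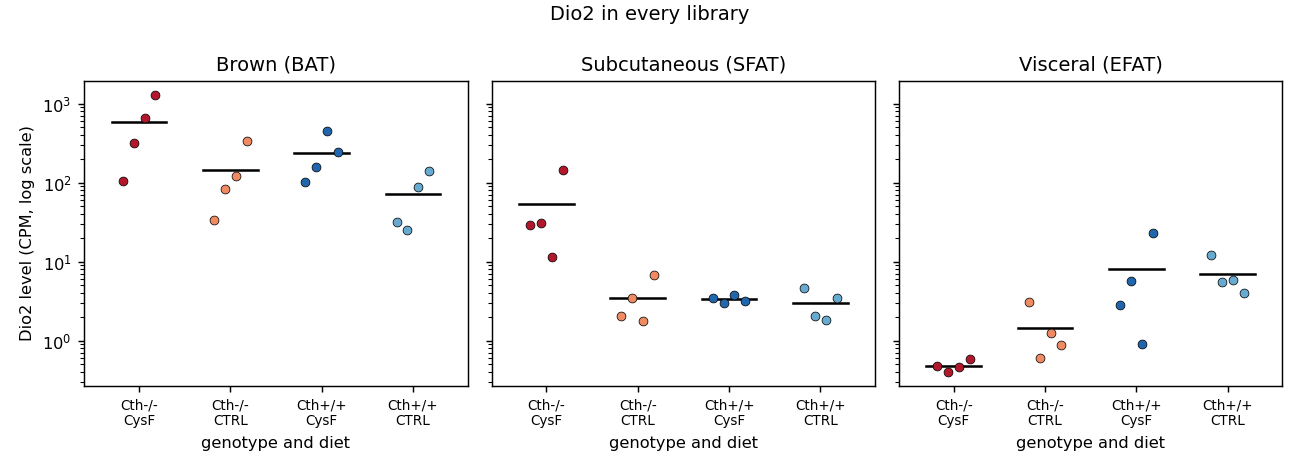
Dio2 levels (CPM, log axis) in the 4 groups of each depot; points are libraries and lines are group means. In SFAT the 4 Cth-/- CysF points (11.5 to 144 CPM) lie above all others, and in EFAT they are the 4 lowest (0.402 to 0.577 CPM).

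Thrb, a nuclear receptor for the product of Dio2, rose with the diet in SFAT and EFAT of Cth-/- mice. It had 42.5, 46.1, 46.9 and 41.6 CPM in Cth-/- CysF and 30.8, 27.0, 37.1 and 30.9 CPM in Cth-/- CTRL SFAT, without overlap, against means of 27.9 ± 5.47 CPM in Cth+/+ CysF and 30.9 ± 5.84 CPM in Cth+/+ CTRL. The diet change in Cth-/- mice was 0.52 ± 0.15 (adjusted p = 0.0177), the genotype difference on the cystine-free diet 0.70 ± 0.15 (adjusted p = 0.00195) and the interaction 0.70 ± 0.21 (adjusted p = 0.0274). The diet call ended without library 13 (0.45, adjusted p = 0.063) and within set B (0.37), and the interaction call ended in 7 of 23 alternatives. In EFAT, Thrb had 41.2, 47.9, 40.7 and 33.2 CPM in Cth-/- CysF and 29.0, 26.8, 32.5 and 23.2 CPM in Cth-/- CTRL mice, again without overlap. In that comparison 5 of 7 macrophage markers fell, to 305 to 459 CPM in Cth-/- CysF against 628 to 719.9 CPM in Cth-/- CTRL libraries. Of 7 fibroblast markers 4 fell and 1 rose, with sums of 1689 to 1894 CPM in Cth-/- CysF against 2423 to 2830.3 CPM in Cth-/- CTRL libraries. Of the other lists, 2 of 4 brown adipocyte, 2 of 6 endothelial and 2 of 6 epithelial markers rose, 2 of 6 smooth muscle markers rose and 1 fell, 2 of 11 skeletal muscle and 1 of 5 nerve markers fell, and 1 of 6 adipocyte markers rose and 1 fell. The part of these shifts in the Thrb result was not tested. Thrb means were 28.7 ± 8.90 CPM in Cth+/+ CysF and 28.4 ± 1.07 CPM in Cth+/+ CTRL. In EFAT the Thrb diet change in Cth-/- mice was 0.65 ± 0.18 (adjusted p = 0.0156). The genotype difference on the cystine-free diet was 0.60 ± 0.18 (adjusted p = 0.0173). The first ended without library 17 (0.55, adjusted p = 0.054), with no low-count filter and within either set, and the second in 8 of 14 alternatives. In BAT the 4 Thrb means were 62.7 to 64.9 CPM, with no call.

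Thra was the most even member, with 58.9 to 94.5 CPM in all 48 libraries. Its means in BAT were 86.5 ± 5.06, 82.6 ± 11.9, 74.0 ± 8.15 and 85.9 ± 7.34 CPM, in SFAT 70.7 ± 6.85, 74.3 ± 7.55, 71.1 ± 8.41 and 83.5 ± 3.62 CPM, and in EFAT 75.1 ± 6.63, 79.2 ± 9.78, 68.2 ± 2.50 and 76.5 ± 2.85 CPM (Cth-/- CysF, Cth-/- CTRL, Cth+/+ CysF and Cth+/+ CTRL; SD, n = 4 each). The only call was the genotype on the cystine-free diet in EFAT, 0.23 ± 0.08 (adjusted p = 0.0343), which held in 2 of 14 alternatives. Nr1d1, which overlaps Thra on the other strand, was higher in the same comparison by 1.78 ± 0.25 (adjusted p = 1.76e-04), at 293.5 ± 51.8 CPM in Cth-/- CysF against 91.7 ± 24.4 CPM in Cth+/+ CysF. Nr1d1 also passed for the genotype in SFAT on the cystine-free diet (1.23 ± 0.20, adjusted p = 2.60e-04) and in BAT on the control diet (0.90 ± 0.22, adjusted p = 0.0446). For the diet in Cth-/- EFAT it was 0.87 ± 0.24 (adjusted p = 0.0166). The Thra values in these comparisons were 0.02, -0.04 and 0.03 in that order, with no call. Whether shared reads contribute to the Thra value was not tested.

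**Figure D5:**
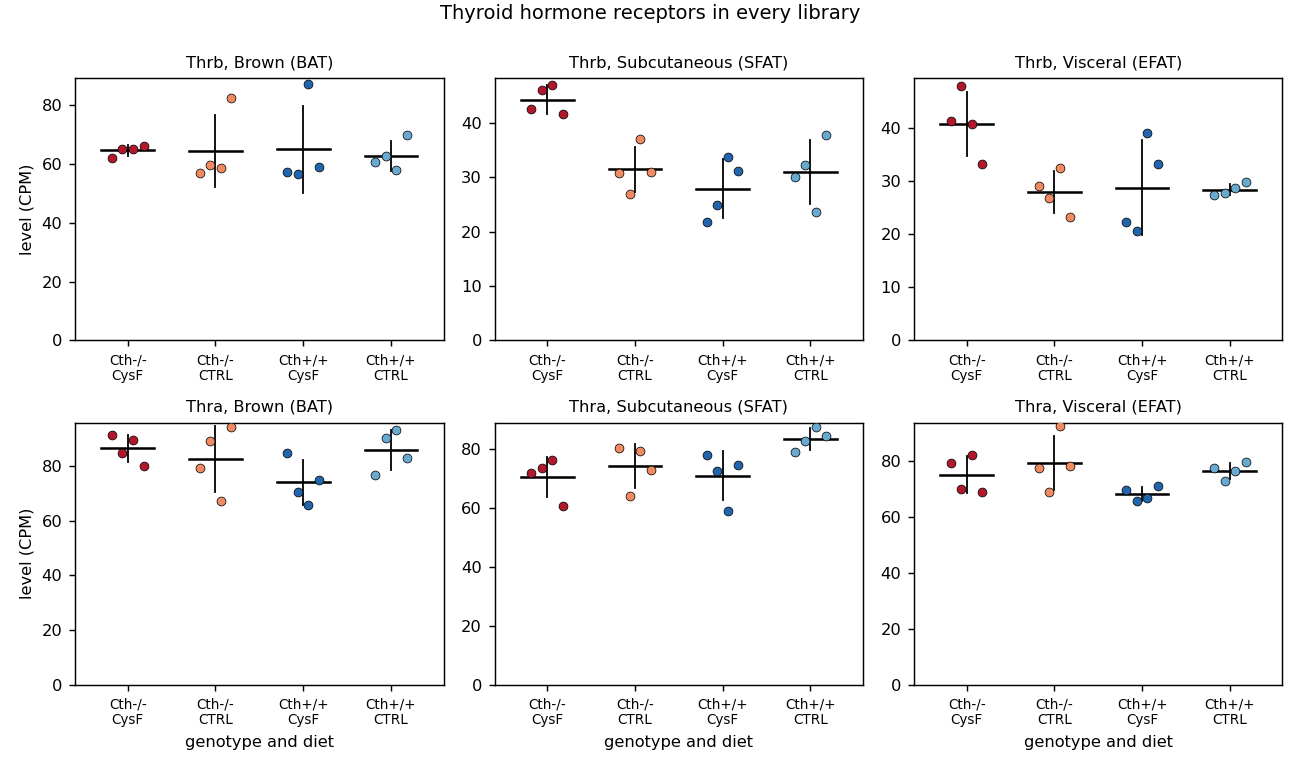
Levels of Thra and Thrb (CPM) in the 4 groups of each depot; points are libraries, and bars give the mean and SD of 4. Thrb in Cth-/- CysF lies at 41.6 to 46.9 CPM in SFAT and 33.2 to 47.9 CPM in EFAT, above the Cth-/- CTRL libraries of each depot, and Thra stays between 58.9 and 94.5 CPM.

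Between genes, levels are compared per kilobase of exon in Cth+/+ CTRL mice. Adrb3 was highest in every depot, at 54.9 ± 13.4 CPM per kb in BAT, 71.6 ± 11.0 in SFAT and 74.4 ± 7.11 in EFAT (SD, n = 4). Thra followed at 18.6 ± 1.59, 18.1 ± 0.785 and 16.6 ± 0.617 CPM per kb in BAT, SFAT and EFAT. In BAT, Dio2 (12.2 ± 9.26), Adrb1 (10.1 ± 2.29), Thrb (8.47 ± 0.689) and Pde4d (6.74 ± 1.93 CPM per kb) came next, neighbours whose differences were within their spread. In SFAT the order after Thra was Thrb (4.18 ± 0.789), Pde4d (1.86 ± 0.363), Pde4b (1.68 ± 0.295), Adrb1 (1.22 ± 0.232), Dio2 (0.510 ± 0.226) and Adra2a (0.365 ± 0.0979 CPM per kb). In EFAT it was Thrb (3.83 ± 0.145), Pde4b (2.08 ± 0.382), Dio2 (1.18 ± 0.617), Pde4d (0.885 ± 0.163), Adrb1 (0.703 ± 0.0827) and Adra2a (0.346 ± 0.0215 CPM per kb). The mean ± SD ranges of neighbours overlapped for Thra and Dio2 in BAT, for Pde4d and Pde4b, Pde4b and Adrb1, and Dio2 and Adra2a in SFAT, and for Pde4b and Dio2, Dio2 and Pde4d, and Pde4d and Adrb1 in EFAT.

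Among Cth+/+ CTRL mice, Adrb1, Dio2, Pde4d and Thrb were higher in BAT than in either white depot. BAT against SFAT called 5 of 8 genes and 53.0% of all genes, and BAT against EFAT called 5 of 8 and 60.0% of all genes, so the members' share was near that of all genes. In both, 1 of the 5 was Adra2a, which passed the filter only through the white depots and is not read as a result. Dio2 was higher in BAT by 4.63 ± 0.87 over SFAT (adjusted p = 1.95e-05) and by 3.40 ± 0.80 over EFAT (adjusted p = 3.75e-04), Pde4d by 1.88 ± 0.28 and 2.96 ± 0.29, and Thrb by 1.04 ± 0.16 and 1.18 ± 0.16. SFAT against EFAT called 2 of 8 (15.2% of all genes), Adrb1 and Pde4d, the second by 1.08 ± 0.28 (adjusted p = 0.00544). Adrb3 did not pass in any pair of depots, at -0.36 ± 0.27 for BAT over SFAT (adjusted p = 0.263), -0.40 ± 0.27 for BAT over EFAT (adjusted p = 0.195) and -0.04 ± 0.27 for SFAT over EFAT (adjusted p = 0.955).

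Genes around the members were counted by list for the diet in Cth-/- mice, where BAT called 18.0% of all genes, SFAT 25.4% and EFAT 28.8%. In Cth+/+ mice the same comparison called 0 genes of the lists below in each depot with edgeR. At an unadjusted p under 0.05, BAT had 7 of its 79 tested genes, SFAT had 14 of 82 and EFAT had 6 of 85, and DESeq2 called 0, 2 and 1 in the same order of depots. Of the other adrenergic receptors, 3 of 6 tested rose and 1 fell in SFAT, 1 of 6 rose and 1 fell in EFAT, and 1 of 3 rose in BAT. The alpha-1 receptors that passed in SFAT were Adra1d (0.91 ± 0.18, adjusted p = 0.00191), Adra1b (-1.33 ± 0.27, adjusted p = 0.00276) and Adra1a (0.50 ± 0.18, adjusted p = 0.0482). The SFAT call of Adra1a, close to the threshold, was not followed through the alternatives. In EFAT Adra1a passed with the other sign (-0.68 ± 0.19, adjusted p = 0.0143). Without libraries 10, 12 and 20, 0 of 5 tested in BAT passed. The list medians were 0.35 in BAT, 0.52 in SFAT and 0.41 in EFAT.

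Among G proteins and adenylyl cyclases, 2 of 13 rose and 1 fell in BAT, 1 of 13 rose and 3 fell in SFAT, and 0 of 14 rose and 2 fell in EFAT. Adcy3, a cyclase that makes cAMP, rose in BAT by 1.58 ± 0.23 (adjusted p = 3.14e-04) and in SFAT by 1.04 ± 0.13 (adjusted p = 7.58e-05), and both calls held in all 15 alternatives. Its SFAT mean was 65.8 ± 7.59 CPM in Cth-/- CysF and 32.7 ± 5.44 CPM in Cth-/- CTRL mice (SD, n = 4 each). Adcy7, another cyclase, fell in SFAT by 1.49 on the log2 scale (SE 0.32, adjusted p = 0.00322). Gnas, the stimulatory G protein subunit, rose in BAT by 0.81 ± 0.14 (adjusted p = 0.00138), and Gnai3, an inhibitory one, fell by 0.55 in EFAT (SE 0.12, adjusted p = 0.00404). The remaining genes named by the rule lost their call in 7 to 11 of 15 alternatives: Adcy7 in BAT (-0.76), Adcy2 in SFAT (-0.98) and Gnai1 in EFAT (-0.61).

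For protein kinase A, its inhibitors and anchors, 3 of 10 rose and 1 fell in BAT, 3 of 11 rose and 3 fell in SFAT, and 1 of 11 rose and 3 fell in EFAT. Without the libraries that stood apart, 1 rose and 0 fell in BAT and 1 rose and 2 fell in SFAT. The anchoring protein Akap12 fell by 0.81 in SFAT (SE 0.14, adjusted p = 8.56e-04) and by 0.77 in EFAT (SE 0.11, adjusted p = 2.59e-04). Prkar1a, a regulatory subunit, rose in BAT by 0.42 ± 0.09 (adjusted p = 0.00454), and Prkar2b, another, fell by 0.75 in EFAT (SE 0.17, adjusted p = 0.00466). The inhibitor gene Pkia fell by 0.91 in SFAT (SE 0.22, adjusted p = 0.00613). Its lower values in BAT (-1.93) and EFAT (-0.48), the higher Pkig in BAT (0.49) and the lower Pkib in SFAT (-1.28) each lost the call in 7 of 15 alternatives.

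Of the 13 other phosphodiesterases, 4 rose in each depot and 1 fell in SFAT, in EFAT a share near the 28.8% of all genes called there. Pde4c, from the same family as the members, rose in BAT by 1.24 ± 0.29 (adjusted p = 0.00827) and in SFAT by 1.13 ± 0.26 (adjusted p = 0.00598), and in EFAT by 1.25 ± 0.43 (adjusted p = 0.0424), a call lost in 11 of 15 alternatives. Pde3b, the insulin-activated phosphodiesterase of fat cells, rose in SFAT by 0.80 ± 0.12 (adjusted p = 2.13e-04), at 624 ± 43.1 CPM in Cth-/- CysF and 364 ± 40.1 CPM in Cth-/- CTRL mice. Pde2a rose in BAT by 0.80 ± 0.14 (adjusted p = 0.00120) and in EFAT by 0.82 ± 0.14 (adjusted p = 0.00102). Pde7b rose in BAT (0.98 ± 0.24), Pde10a rose in EFAT (0.91 ± 0.18) and Pde7a fell in SFAT (-0.56 ± 0.15), of which the first and last lost the call without the libraries that stood apart. The list medians were 0.33 in BAT, 0.32 in SFAT and 0.36 in EFAT, against the -0.01, 0.03 and 0.07 of all genes.

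The genes that desensitise receptors gave 0 calls of 8 in BAT with edgeR or DESeq2 (2 at an unadjusted p under 0.05), 2 higher and 3 lower in SFAT, and 1 higher and 2 lower in EFAT; without the libraries that stood apart these were 1 and 2 in SFAT and 1 and 1 in EFAT. Rgs2, a regulator of G protein signalling, rose by 1.43 ± 0.28 in SFAT (adjusted p = 0.00206) and by 1.31 ± 0.35 in EFAT (adjusted p = 0.0134), where the call was lost without library 20. Arrb2, a beta-arrestin, was lower in SFAT (-0.76 ± 0.25) and the receptor kinases Grk3 higher in SFAT (0.73 ± 0.21) and Grk6 (-0.57 ± 0.18) and Grk5 (-0.47 ± 0.17) lower in EFAT, and each of these 4 lost its call in 6 to 10 of 15 alternatives.

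Of the genes known to be induced by cAMP, BAT had 2 of 11 higher, SFAT 5 of 11 and EFAT 4 of 10, with 0 lower; the BAT share was near the 18.0% of all genes called there. Without the libraries that stood apart 3 rose in SFAT and 3 in EFAT, and the BAT median was 0.13 against 0.80 with them. Ucp1, the uncoupling protein of brown fat, which also counts among the brown adipocyte markers, rose in BAT by 1.25 ± 0.22 (adjusted p = 0.00164). In SFAT its value was 3.00 ± 1.01 (adjusted p = 0.0395), a call lost in 10 of 15 alternatives, among them without library 20. The nuclear receptor Nr4a3 rose by 2.56 ± 0.57 in SFAT (adjusted p = 0.00460) and 2.61 ± 0.36 in EFAT (adjusted p = 2.33e-04). The coactivator Ppargc1a rose by 1.35 ± 0.23 in SFAT (adjusted p = 7.12e-04) and 1.58 ± 0.36 in EFAT (adjusted p = 0.00603). The clock gene Per1 rose by 1.60 ± 0.22 in EFAT (adjusted p = 2.59e-04) and by 1.43 ± 0.44 in BAT (adjusted p = 0.0352), where 7 of 15 alternatives lost the call.

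The genes around thyroid hormone were mixed. Of those for its transport, metabolism and receptor partners, 1 of 13 rose and 1 fell in BAT, 1 of 13 rose and 2 fell in SFAT, and 2 of 16 rose and 1 fell in EFAT. Usp33, which removes ubiquitin from the Dio2 protein, rose in BAT by 0.67 ± 0.14 (adjusted p = 0.00430), in SFAT by 0.87 ± 0.08 (adjusted p = 7.40e-06) and in EFAT by 0.59 ± 0.08 (adjusted p = 1.28e-04). Wsb1, the ubiquitin ligase adaptor for the same protein, was lower in SFAT (-0.57 ± 0.16, adjusted p = 0.0159), a call lost without library 13 or 17. The corepressor Ncor1 rose by 0.70 in EFAT (SE 0.16, adjusted p = 0.00659). Slc16a10, a thyroid hormone transporter, fell by 0.66 in EFAT (SE 0.11, adjusted p = 6.50e-04) and had -0.37 ± 0.12 in BAT, a call lost in 9 of 15 alternatives.

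Of 4 genes known to respond to thyroid hormone, 1 rose and 1 fell in BAT and in SFAT, and 1 rose and 2 fell in EFAT. Klf9 rose in all 3 depots, by 0.98 ± 0.12 in BAT (adjusted p = 1.15e-04; 223 ± 26.8 CPM in Cth-/- CysF and 114 ± 6.96 CPM in Cth-/- CTRL), 1.07 ± 0.14 in SFAT (adjusted p = 9.07e-05) and 1.19 ± 0.16 in EFAT (adjusted p = 1.54e-04). Hr, also a known target, fell by 1.52 in SFAT (SE 0.19, adjusted p = 8.19e-05) and by 1.36 in EFAT (SE 0.26, adjusted p = 0.00187). Me1 fell by 1.03 in BAT (SE 0.22, adjusted p = 0.00569), and Thrsp was lower in EFAT (-1.93 ± 0.53, adjusted p = 0.0155), a call lost once the set was a model term and without library 12. Among nerve-related signals, 1 of 4 tested rose in BAT, 1 of 3 rose and 1 fell in SFAT, and 0 of 3 were called in EFAT with edgeR, with DESeq2 or at an unadjusted p under 0.05. Bmp8b rose in BAT by 2.23 ± 0.42 (adjusted p = 0.00226), and Nrg4 rose in SFAT by 0.60 ± 0.14 (adjusted p = 0.00549). Each EFAT call named in these lists ended within at least 1 of the 2 sets, where fewer libraries were compared. Beyond the losses given above, in BAT the calls of Pde7b and Usp33 ended within set A, those of Gnas, Prkar1a, Pde2a, Pde4c and Bmp8b within set B, and that of Me1 within both. In SFAT the call of Pde7a ended within set A, and those of Adra1b, Adra1d, Pkia, Pde3b, Pde4c and Wsb1 within set B.

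Across the 48 libraries, with each depot's mean subtracted, log2 levels of Dio2 and Pde4d had a Pearson r of 0.653, and r was 0.875 in BAT, 0.741 in SFAT and 0.261 in EFAT alone (16 libraries each). Adrb3 and Dio2 had r = -0.438 over all libraries and -0.547, -0.635 and -0.125 in BAT, SFAT and EFAT. These values describe libraries that share groups and sets and carry no test. Among 12449 genes, the 3 most like Adrb3 in this measure were Mmp9 (r = 0.825), Lsm10 (0.799) and Gatsl2 (0.760). The 3 most like Dio2 were Coq10b (0.829), Hccs (0.785) and Cpt2 (0.773). All r values here include the libraries that stood apart and were not computed without them. Of these, library 20 had the highest Dio2 level in BAT (1294 CPM). Library 20 also had the highest Dio2 and Pde4d levels in SFAT (144 and 51.6 CPM).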

How the data were processed

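The deposited values are expected counts, one per gene and library, without scaling. Per the submitters' processing notes the authors ran RSEM, STAR, FastQC and Picard, on mm10; no version, annotation or strand setting is given in the sources used here. RSEM shares reads that map to several genes among them, so values of overlapping genes are estimates. Between 5.31 and 8.16% of a library's values were not whole, and expected counts were rounded for the tests.

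From these, each depot's 16 libraries were fitted in 4 groups with edgeR 4.0.16 (limma 3.58.1, R 4.3.3): filterByExpr (minimum count 10, minimum total 15), TMM scaling, the quasi-likelihood test, two-sided, with Benjamini-Hochberg adjustment over all genes tested (14528 in BAT, 16555 in SFAT, 17248 in EFAT) and a threshold of 0.05. Depots were compared in 1 fit of 48 libraries (18348 genes). The scripts were tested on simulated data. DESeq2 1.42.0, RLE scaling, no filter, the library set as a term, the replicate number as a block and leaving out each library were alternatives. Fits within a set and without the libraries that stood apart, and all alternatives for the named pathway genes, were chosen after seeing the data. Python 3.11.15, pandas 2.3.3 and matplotlib 3.10.9 served for sequences and plots. Depth limits Adra2a most, at 0 to 103 reads a library.

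The members, lists and tests were chosen with earlier results of these data known. Named genes were the 8 members, up to 3 called genes per pathway list with the largest log2 fold change and at least 1 CPM for the diet in Cth-/- mice, and the 3 genes most like Adrb3 and Dio2. Results of a few genes chosen this way are not reported here. Promoter windows came from RefSeq (GRCm38.p6). For the predicted gene used to define sets A and B, levels were scaled within a depot.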

Additional observations from a re-analysis of the deposited data

Results flagged for a closer look

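In 5 of 96 groups examined (8 genes in 12 groups of 4), 1 library stood apart from the other 3 by more than Dixon's critical value; chance gives about 1 in 20 groups. Dio2 in SFAT of Cth-/- CysF mice was 144.4 CPM in library 20, where the others had 11.54 to 31.26 CPM. Thrb in BAT was 82.36 CPM in Cth-/- CTRL library 15 (others 56.69 to 59.63 CPM) and 87.08 CPM in Cth+/+ CysF library 10 (others 56.60 to 58.82 CPM). Pde4b in SFAT was 16.39 CPM in Cth-/- CTRL library 15 (others 8.345 to 9.387 CPM). Adra2a in BAT was 0.3706 CPM in Cth+/+ CysF library 11 (others 0.05964 to 0.08769 CPM), which is 7 reads against 1 read in each other library of the group.

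The diet response differed between genotypes, by the interaction test, for Adrb3 in BAT (-1.77) and in SFAT for Adrb1 (1.16), Pde4d (1.68), Dio2 (3.85) and Thrb (0.70). Between depots it differed in Cth-/- mice for Dio2 (EFAT minus SFAT -5.55, EFAT minus BAT -3.61) and Adrb3 (EFAT minus BAT 1.09). All are log2 differences. Both EFAT minus BAT calls ended in most alternatives, and the EFAT minus SFAT call ended without EFAT library 12. In EFAT, Dio2 had only 12 to 19 reads a library in Cth-/- CysF mice.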

How the results depend on the processing

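Of 163 member results 34 were called, and 19 of these kept their call under every alternative. The 34 include 5 calls for BAT over SFAT, 5 for BAT over EFAT and 2 for SFAT over EFAT. There 53.0%, 60.0% and 15.2% of all genes passed. In each of the BAT comparisons 1 call was Adra2a, which passed the filter only through the white depots. Comparisons between depots were not fitted within a set, and such fits ended many of the calls within a depot. The 19 therefore do not measure how the diet and genotype calls alone held. Of 2749 alternative values 2637 stayed on the same side of the threshold, 77 lost a call, 35 gained one and 0 called results reversed. The 2637 include 177 that changed sign while passing in neither fit. Counts of members called moved as follows, and the cause was not tested. Counts over all genes moved in many of the same fits, over the ranges at the end of this section. Many fits within a set also had a group of 1 library. A change in the members is therefore not told apart here from a change in overall calling.
For the diet in Cth-/- mice, BAT had 1 with edgeR, 2 with DESeq2, 3 within set B and 1 to 2 leaving out a library; SFAT had 4, and 3 to 5 leaving out a library; EFAT had 1, 0 with no filter, 2 with DESeq2, 0 within set A, 0 within set B and 0 to 2 leaving out a library. For the diet in Cth+/+ mice, 0 became 1 with DESeq2 in BAT and SFAT, 1 with a term for the set in SFAT, and 0 to 1 there leaving out a library. For the genotype on the cystine-free diet, BAT had 1, 0 within set B and 1 to 2 leaving out a library, SFAT 4 to 6 leaving out a library, and EFAT had 3, 1 with no filter, 1 with the set as a term, 0 within set A and 1 to 3 leaving out a library. The interaction had 0 within set B in BAT, 2 within set A in SFAT (3 to 4 leaving out a library) and 0 to 1 in EFAT leaving out a library. EFAT minus SFAT had 0 to 1 leaving out a library. EFAT minus BAT had 2, 0 with no filter, 1 with the set as a term, 0 without the libraries that stood apart and 0 to 2 leaving out a library. BAT over EFAT had 5 to 6 leaving out a library.

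Of 48 pairs of libraries with the same number in 2 depots, 31 had a correlation of their deviations over 0.1 (range -0.152 to 0.574), and 27 correlated best with their own number, so the pairing rests on a hint from the data alone. With the replicate block SFAT minus BAT had 1 member called (Adrb3, 1.00, adjusted p = 0.039) in place of 0, and 892 genes in place of 397; EFAT minus SFAT had 2234 in place of 804. In the same fit Pde4b passed for BAT over EFAT (-0.48) and Thrb for EFAT minus BAT (0.57).

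Counts over all genes moved by more than 1.5 times, over alternatives other than leaving out 1 library, for the diet in Cth-/- mice in BAT (2617; 333 to 3148) and EFAT (4976; 65 to 5711), and in Cth+/+ mice in BAT (12; 0 to 167), SFAT (11; 6 to 1053) and EFAT (0; 0 to 39). They did so for the genotype on the cystine-free diet in BAT (4589; 458 to 5083) and EFAT (6841; 85 to 7312), on the control diet in BAT (305; 1 to 1095), SFAT (17; 2 to 1411) and EFAT (8; 0 to 36), for the interaction (BAT 932; 2 to 1484, SFAT 3600; 2122 to 4210, EFAT 1792; 3 to 2903), for SFAT minus BAT (157 to 892) and EFAT minus SFAT (468 to 2234), and for EFAT minus BAT (2976; 1731 to 4231). The lowest counts mostly came from fits within 1 set, which hold fewer libraries. Leaving out 1 library also moved these counts by over 1.5 times. For the diet in Cth-/- mice BAT had 1695 without library 17 and 1696 without 14, and EFAT 2962 without 12 and 3280 without 14. In Cth+/+ mice BAT had 0 without 1, 2, 3, 10 or 11, 3 without 4, 22 without 7 and 29 without 8, and SFAT had 199 without 11 and 0 without 1, 2, 3, 4, 8 or 10. On the control diet the genotype called 32 to 81 in BAT without 1, 2, 3, 4, 13 or 15, 11 in SFAT without 1 or 14, and 2 to 5 in EFAT without 1, 2, 3, 12, 13, 14 or 15. The interaction called 488 to 575 in BAT without 3, 4, 14, 17 or 18, and in EFAT 714 to 1130 without 1, 4, 8, 12, 14, 17 or 20, 2924 without 15 and 3414 without 16. SFAT minus BAT had 176 to 244 without BAT 12 or 17 or SFAT 13 or 20, and EFAT minus BAT 1695 to 1863 without EFAT 12, 14 or 20. EFAT minus SFAT had 209 to 490 without SFAT 13, 15, 16 or 17 or EFAT 12, 14, 18 or 20, and 1740 without EFAT 15.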
